A study of Mus musculus with 3 samples.

Results

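The genes described here carry the chemokine signal from receptor to cell movement: the inhibitory G protein subunits Gnai2, Gnai3, Gnb1 and Gng2, the phosphoinositide 3-kinase gamma (PI3K gamma) subunits Pik3cg and Pik3r5, the kinases Akt1 and Akt2, and Arrb2. They were taken by gene symbol from the annotation of the array. Of these 9 genes, 8 had a named probe set, out of 19505 named genes in all, and each of the 8 had 1 probe set. Arrb2 was not analysed here. The study asked how 2 plant compounds hinder the migration of plasmacytoid dendritic cells, the interferon-producing dendritic cells.

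The cells were wild-type and were derived from the marrow of BALB/c males, 4 to 5 weeks old. Culture with 100 ng/mL of Flt3 ligand lasted 6 to 9 days, after which CpG oligodeoxynucleotides, which trigger TLR9, matured the cells, and these were sorted. The control group was labelled as control cells only, and whether it received CCL21 or a vehicle is not stated. The second group received the Astragalus saponin astragaloside IV for 12 h and then, for 1 h, the chemokine CCL21, which CCR7 binds. The third group received the Sophora alkaloid oxymatrine for 12 h and then CCL21 for 1 h. No dose is stated, nor how many mice or cultures gave each RNA, and culture-grown cells stand in for those of tissue. Each group had 1 array, so no difference below has a replicate error or a test, and an effect of a compound cannot be told apart from the CCL21 step or from differences between cultures.

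Chemokine receptors are coupled to heterotrimeric G proteins of the inhibitory class. On activation the alpha subunit binds GTP and parts from the beta-gamma dimer, and the dimer recruits and activates PI3K gamma at the membrane. The lipid PIP3 made there draws AKT kinases and activators of Rac to the leading edge, while arrestins end receptor signalling.

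The identity of the cells was checked on markers. Of 18 measured plasmacytoid dendritic cell markers, 15 were above background. Background was set at a log2 level of 5.28, the 95th percentile of 1410 odorant and pheromone receptor genes. The 5222 intronic control probe sets had a median of 5.33 in control, 5.49 under astragaloside IV and 5.51 under oxymatrine, above that level. A call just above background, such as that of Ms4a1 at 5.55 in control, therefore does not show that a gene is expressed. Siglech was at a log2 level of 8.99 in control, 8.99 under astragaloside IV and 9.02 under oxymatrine, whereas Spib, a transcription factor of the lineage, was at 8.03, 8.03 and 7.55. Of the 15 markers, 7 were lower, 1 higher and 7 equal under astragaloside IV. Under oxymatrine 9 lay below control, 3 above it and 3 level with it. Ly6d differed from control by -0.30 in each treated array and Smim5 by 0.83 and 1.32. Pacsin1, Cd209d and Upb1 were below background. The cultures were not free of transcripts used as markers of other cells, since all 7 measured monocyte and macrophage markers and 4 of 6 markers of type 2 conventional dendritic cells were above background. So were 6 of 8 type 1 conventional dendritic cell markers, 3 of 8 T and NK cell markers (Cd5, Il2rb and Cd8b1), 3 of 9 neutrophil markers (Lcn2, Csf3r and Mmp8), 2 of 4 B cell markers (Cd79b and Ms4a1) and 1 of 3 erythroid markers (Car2). The T cell receptor complex genes Cd3d, Cd3e and Cd3g and the granule genes Elane and Mpo of neutrophil precursors were below it. Over all named genes, Pearson's r between arrays was 0.997 to 0.998.

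All 8 measured genes lay well above background, from 3.14 log2 units above it for Akt2 to 11.4 for Gnb1. Values are log2 levels from the authors' normalisation, and a level cannot be compared between genes, whose probes differ. Of the 8 genes, 6 stayed within 0.08 log2 units across the 3 arrays, and Akt2 and Pik3r5 had wider ranges. The normalisation often returns exactly equal values, which occurred in at least 2 arrays for 51.6% of the 10671 genes above background and for 4 of the 8 genes here. An equal value is therefore not a measurement that nothing differed.

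**Figure D1:**
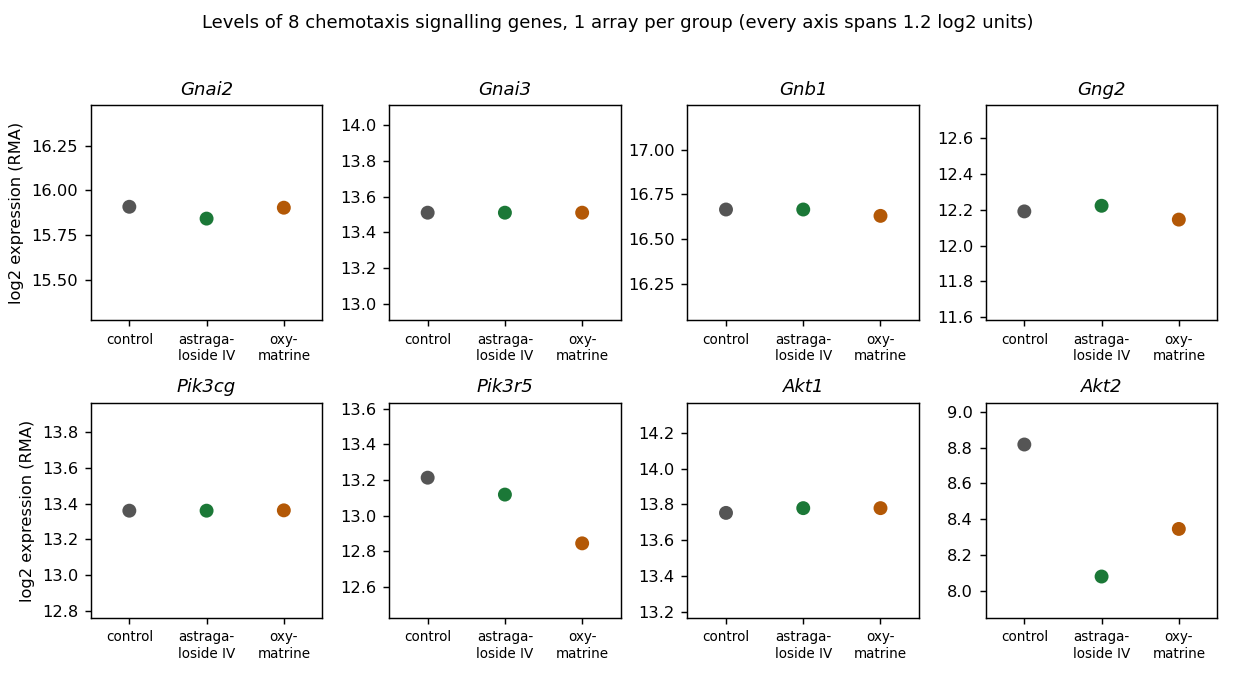
Log2 expression (vertical axis) of the 8 measured genes in the control, astragaloside IV and oxymatrine arrays (horizontal axis), 1 point per array and no error bars because each group had 1 array. Each panel spans the same 1.2 log2 units but at its own level. Akt2 spreads over 0.74 units and Pik3r5 over 0.37, and the other 6 lie nearly flat.

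Gnai2 encodes the inhibitory alpha subunit that is most abundant in leukocytes. Its log2 level was 15.91 in control, 15.84 under astragaloside IV and 15.90 under oxymatrine, so the astragaloside IV array was lowest, by -0.07 against control. That is -0.83 times the SD of 0.08 which this difference had over the 533 genes of similar level. Such an SD gives the scatter among equally bright genes and does not stand for an error between replicates. Gnai3, the close relative that shares the work of Gnai2 in many cells, was at 13.51 in each of the 3 arrays. Neither subunit gene was separated from control by more than genes of its level usually were.

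Gnb1 encodes a beta subunit and Gng2 a gamma subunit, partners in the dimer that activates PI3K gamma. Gnb1 was at 16.67 in control, 16.67 under astragaloside IV and 16.63 under oxymatrine. Gng2 was at 12.19, 12.22 and 12.14 in the same order. The oxymatrine array was lowest for both genes, by -0.04 for Gnb1 and -0.05 for Gng2 against control, which were -0.32 and -0.29 times the SD of genes of their level. For Gng2 the sign of this small difference turned after quantile normalisation, to 0.01.

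Pik3cg encodes the catalytic subunit of PI3K gamma, the isoform that G protein beta-gamma dimers switch on. It was at 13.36 in all 3 arrays, equal in control and astragaloside IV and higher by 0.0019 under oxymatrine. Pik3r5 encodes a regulatory subunit that couples this catalytic subunit to the dimer. It was at 13.21 in control, 13.12 under astragaloside IV and 12.85 under oxymatrine, so control was highest and oxymatrine lowest. Oxymatrine lay below control by a log2 difference of -0.37, or 77.5% of the control value, and this was -2.47 times the SD of genes of similar level. Of 533 genes at that level, 19, Pik3r5 included, differed from control by at least as much. With astragaloside IV the difference was -0.09, or -0.79 times the SD. The catalytic and the regulatory gene thus differed unequally in the oxymatrine array, by -0.37 when the difference of Pik3cg is subtracted from that of Pik3r5.

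Pik3r6 encodes the other regulatory subunit of PI3K gamma, an alternative partner for the same catalytic subunit. Its log2 level was 8.47 in control, 8.30 under astragaloside IV and 8.84 under oxymatrine, so here the oxymatrine array was highest. Against control the difference under oxymatrine was 0.36, 1.58 times the SD at its level, the opposite sign to Pik3r5. The gap between the differences of Pik3r6 and Pik3r5 was 0.73 under oxymatrine and -0.07 under astragaloside IV. No test of that gap is possible with 1 array in each group.

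Akt1 and Akt2 encode kinases that bind PIP3 through their pleckstrin homology domains. Akt1 was at 13.75 in control, 13.78 under astragaloside IV and 13.78 under oxymatrine, higher by 0.03 in each treated array, though after centring on the array medians the oxymatrine value was -0.0006. Akt2 was at 8.82 in control, 8.08 under astragaloside IV and 8.35 under oxymatrine. Both treated arrays were below control, and the astragaloside IV array was lowest. The log2 difference was -0.74 under astragaloside IV, 59.9% of the control value, and -0.47 under oxymatrine, 72.1% of it.

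Set against the 533 genes of similar level, Akt2 lay -3.56 SDs from control under astragaloside IV, where the SD was 0.21, and 4 of those genes, Akt2 included, differed by at least as much. With oxymatrine it lay -2.05 SDs away, where the SD was 0.23, and 37 of the 533 genes differed by at least as much. Subtracting the difference of Akt1 from that of Akt2 left -0.77 under astragaloside IV and -0.50 under oxymatrine. Both treated differences rest on the same control array, so its Akt2 value enters both. In bulk RNA, fewer cells that express a gene and less of its RNA per cell cannot be told apart.

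Some marker lists were lower in the treated arrays as well, while others were nearly flat or lay on both sides of control. The 3 neutrophil markers above background, out of 9 measured, had a mean log2 level of 10.58 in control, 10.16 under astragaloside IV and 10.46 under oxymatrine. All 9 measured averaged 6.43, 6.26 and 6.42. The 3 of 8 markers of T and NK cells above background averaged 7.11, 6.62 and 6.51, and all 8 measured averaged 5.11, 4.90 and 4.96. The 15 plasmacytoid dendritic cell markers averaged 10.43, 10.40 and 10.43. That mean includes Smim5, which lay above control by 0.83 and 1.32. With astragaloside IV 7 of the 15 lay below control, 1 above and 7 level. With oxymatrine 9 lay below, 3 above and 3 level. The level mean therefore does not show that these markers were unchanged. The 6 of 8 markers of type 1 conventional dendritic cells above background averaged 8.12, 7.93 and 7.84. Among these Tlr3 was higher than control, by 0.53 and 0.10. The defining genes Xcr1 and Clec9a of these cells were below background in every array. The 4 type 2 markers above background averaged 11.39, 11.43 and 11.38. The 7 monocyte and macrophage markers averaged 11.79, 11.76 and 11.70, with a median difference of 0 in each treated array. The 2 B cell markers above background averaged 7.84, 7.73 and 7.88, and the 1 erythroid marker was at 14.02, 13.60 and 13.91. Exonic control probe sets differed from control by a mean of -0.04 under astragaloside IV and -0.13 under oxymatrine, and intronic ones by 0.16 and 0.15. The part of these shifts in the values of Akt2 and Pik3r5 was not tested.

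The regions before the annotated starts of the genes that were lowest in the treated arrays are shown because Akt2 and Pik3r5 were the members with the widest ranges. They were taken from RefSeq on GRCm38.p6, as the 250 bases before the start that lies farthest upstream. Akt2 has 4 annotated starts in that table, which 1 probe set does not separate, and Pik3r5 has 1. For Akt2 the window is chr7:27591302-27591551 and for Pik3r5 chr11:68431875-68432124, both on the plus strand. Capitals mark the GC box GGGCGG, the core that SP and KLF factors bind, or CCGCCC for the other strand.
Akt2: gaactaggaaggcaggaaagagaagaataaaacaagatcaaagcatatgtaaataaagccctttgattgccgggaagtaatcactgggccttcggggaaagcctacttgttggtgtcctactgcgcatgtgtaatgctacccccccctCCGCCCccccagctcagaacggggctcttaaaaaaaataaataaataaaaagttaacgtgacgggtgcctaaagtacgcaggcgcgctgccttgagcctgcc
Pik3r5: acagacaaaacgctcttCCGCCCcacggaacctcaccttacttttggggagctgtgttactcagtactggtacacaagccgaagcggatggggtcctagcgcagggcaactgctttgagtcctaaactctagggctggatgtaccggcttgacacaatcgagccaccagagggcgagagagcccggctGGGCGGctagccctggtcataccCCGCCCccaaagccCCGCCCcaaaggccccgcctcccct
The Akt2 window held the GC box 1 time and the Pik3r5 window 4 times, and the windows of the other 3 Akt2 starts held 0. At least 1 GC box lay in 4 of the 12 windows of the members and in 32.7% of the 32851 windows of all genes. Of the 2 Akt1 windows, 1 held it 4 times. The window before the single start of Gnb1, a gene that stayed within 0.04 log2 units, held it 3 times with overlap, so the match was not limited to the lower genes. The E-box CAGGTG, a form that E proteins such as Tcf4 bind, or CACCTG, lay in 17.2% of all windows and in 0 of the 12. The 12 windows belong to 7 genes, and Gnai2 had no entry. The PU.1-type motif GAGGAAG, or CTTCCTC, lay in 10.6% of all windows and, among the members, in 1 window of Pik3cg, 2 times. These are matches of letters and not measured binding.

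None of the 8 genes was 2-fold apart in any comparison. With astragaloside IV 0.197% of the 10671 genes above background were 2-fold apart from control, under oxymatrine 0.281%, and between the treated arrays 0.159%. At 1.5-fold, Akt2 under astragaloside IV was the only member apart from control, beside 2.13% of all genes. With oxymatrine 0 of 8 members were 1.5-fold apart, beside 3.31% of all genes. At 2 or more SDs of genes of similar level there was 1 of 8 members under astragaloside IV, beside 6.96% of all genes, and 2 of 8 under oxymatrine, Akt2 and Pik3r5, beside 7.19%. Akt2 passed 2 SDs under oxymatrine narrowly, at -2.05, and lay at -1.99 after quantile normalisation and -1.90 after lowess centring. By sign alone, 3 members were lower, 2 higher and 3 equal under astragaloside IV, beside 40.8% of all genes lower, 31.4% higher and 27.7% equal. With oxymatrine 5 were lower, 2 higher and 1 equal, beside 46.0% of all genes lower, 29.7% higher and 24.4% equal. The median difference of the members was 0 under astragaloside IV and -0.02 under oxymatrine, and 0 over all genes in both comparisons. The signs of the small differences depended on scaling: after centring on the array medians all 8 members were lower under oxymatrine, and after lowess centring 4 were.

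**Figure D2:**
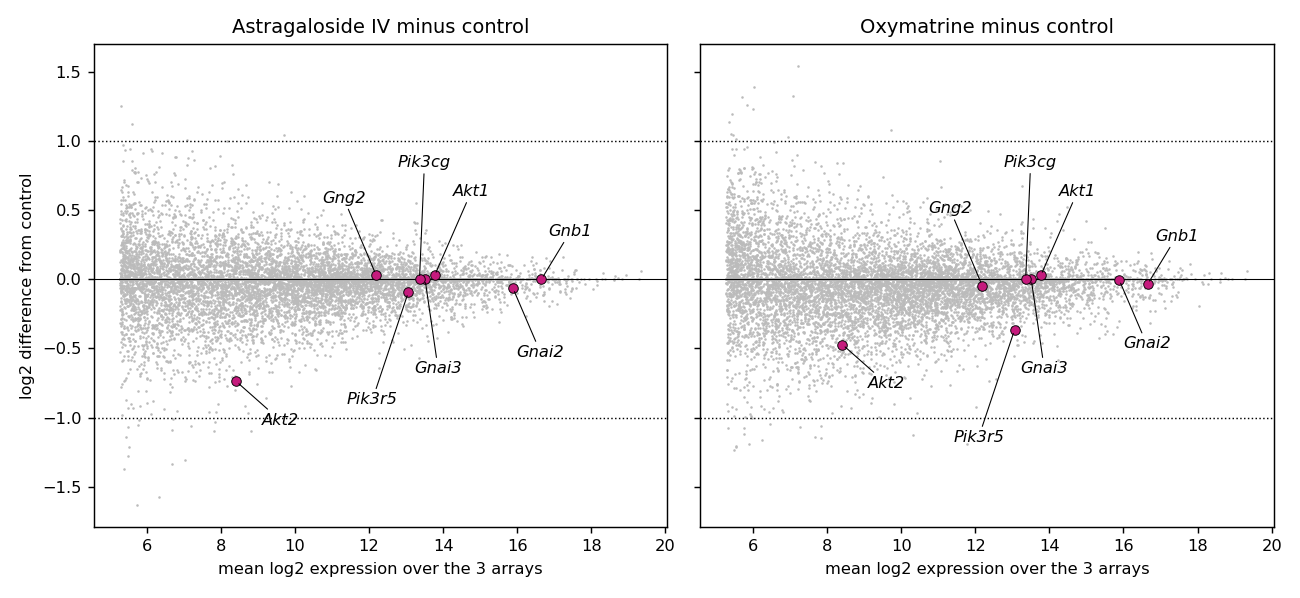
Log2 difference from control (vertical axis) against the mean log2 expression over the 3 arrays (horizontal axis) for 10671 genes above background in grey and 8 chemotaxis signalling genes in magenta, for astragaloside IV (left) and oxymatrine (right). Dotted lines mark a 2-fold difference. Akt2 lies at the lower edge of the grey cloud on the left at -0.74, Akt2 and Pik3r5 lie in its lower part on the right at -0.47 and -0.37, and the other members lie near 0.

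Between the treated arrays the members farthest apart were Pik3r5 and Akt2, in opposite directions. Pik3r5 was lower under oxymatrine than under astragaloside IV by -0.27, which is -2.38 times the SD at its level, and Akt2 was higher by 0.27, 1.26 times the SD. Gng2 was lower under oxymatrine by -0.08 and Gnai2 higher by 0.06. Gnai3 and Akt1 were equal. By sign 3 members were lower, 3 higher and 2 equal, beside 40.7% of all genes lower, 32.5% higher and 26.7% equal. At 1.5-fold 0 of 8 members were apart, beside 2.58% of all genes, and at 2 SDs of genes of similar level 1 of 8, Pik3r5, beside 6.91%.

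The rest of the pathway was described with 11 lists that hold 107 genes besides the 9, of which 101 were measured and 79 were above background. With astragaloside IV 33 of these 79 were lower, 24 higher and 22 equal, beside 40.8% of all genes lower and 31.4% higher. Under oxymatrine 32 were lower, 25 higher and 22 equal, beside 46.0% lower and 29.7% higher. Those shares of all genes also stand behind the counts of each list below. The median was 0 in both comparisons. At 1.5-fold 2 of 79 were apart under astragaloside IV, Inpp5e and Tiam1, beside 2.13% of all genes. Under oxymatrine it was 1 of 79, Tiam1, beside 3.31%. None was 2-fold apart as deposited, but Tiam1 under oxymatrine reached -1.003 after centring on the array medians and -1.03 after quantile normalisation, where Gng4 also passed 1.5-fold at -0.59. The counts by sign, here and in each list below, move with scaling, since 62 of the 79 were lower under oxymatrine after centring on the array medians and 30 after lowess centring.

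**Figure D3:**
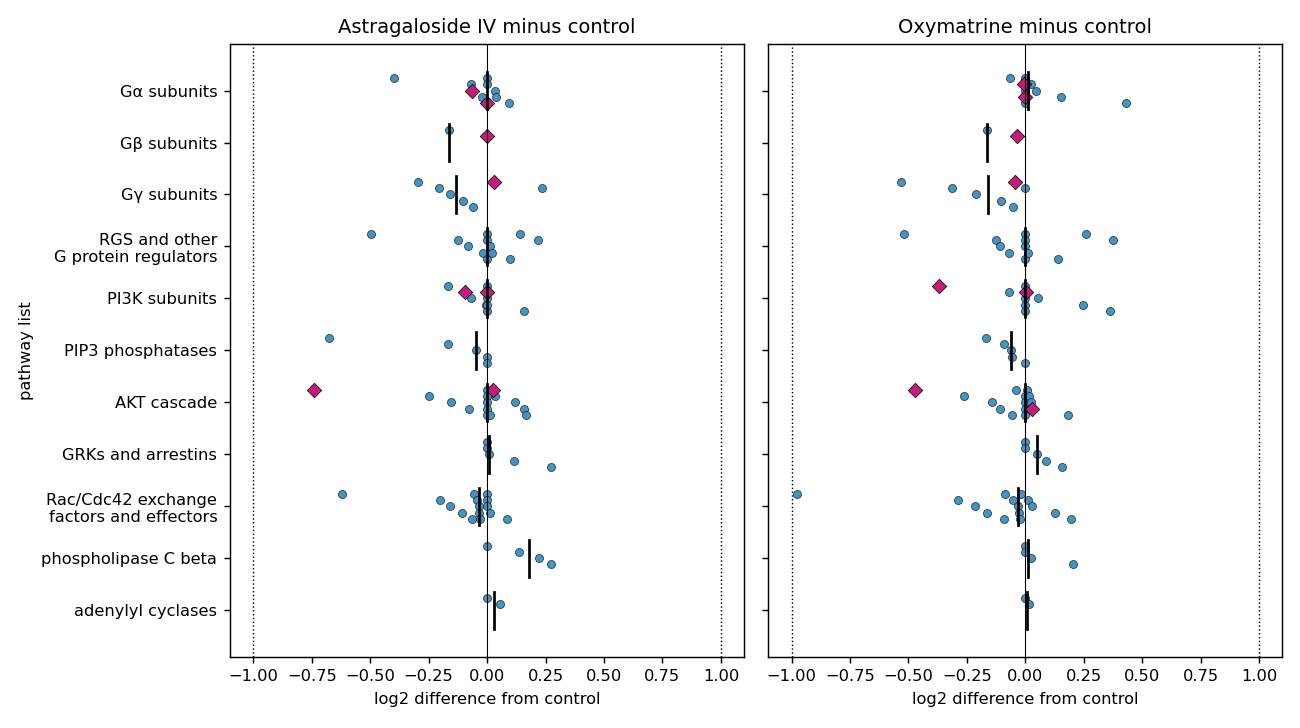
Log2 difference from control (horizontal axis) of the genes above background in 11 pathway lists (vertical axis), for astragaloside IV (left) and oxymatrine (right), 1 point per gene and spread vertically within a list only for legibility. Magenta diamonds are the members, blue points the other genes, black bars the median of the other genes, and dotted lines a 2-fold difference. Medians lie between -0.17 and 0.18, and the points farthest left are Akt2 under astragaloside IV at -0.74 and the Rac activator Tiam1 under oxymatrine at -0.98.

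Among the other G protein subunits, Gnb4, a second beta subunit, was at 12.64 in control, 12.47 under astragaloside IV and 12.47 under oxymatrine, below control in each treated array. Of 6 other gamma subunit genes above background, 5 were lower in each treated array. Gng5, the brightest of them, differed by -0.10 in both and Gng4 by -0.16 and -0.53. Gng11 was higher by 0.23 under astragaloside IV and lower under oxymatrine, by -0.32 with a level of 5.10 that is below background. The gamma list had 5 of 6 genes lower under astragaloside IV under every scaling tried, and between 4 and 6 lower under oxymatrine. Of 8 other alpha subunit genes, 3 lay below and 3 above control under astragaloside IV, and 1 lower and 4 higher under oxymatrine. Gnai1, the third relative of Gnai2, was at 6.48 in control and under oxymatrine and at 6.08 under astragaloside IV. Gna11, of the class that activates phospholipase C, was higher under oxymatrine by 0.43.

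Proteins that end or restrain the signal differed in both directions. The RGS proteins speed up GTP hydrolysis by alpha subunits. Rgs1, the brightest of that list, differed from control by 0.01 in each treated array. Rgs12 lay -0.12 from control under astragaloside IV and -0.52 under oxymatrine, and Gpsm3, which binds inhibitory alpha subunits in leukocytes, by -0.50 and -0.12. Of 5 receptor kinase and arrestin genes other than Arrb2, 3 were higher and 0 lower in each treated array, though 2 were lower in each after quantile normalisation. Arrb1, the relative of Arrb2, was at 11.95 in control, 12.22 under astragaloside IV and 12.04 under oxymatrine. The astragaloside IV array was highest for Arrb1, by 0.28 against control, 2.09 times the SD at its level. Grk3, a receptor kinase, was higher under oxymatrine by 0.16.

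Among the remaining PI3K genes, Pik3ca and Pik3cd, which encode other catalytic subunits, and Pik3r1, which encodes the main regulatory subunit of that class, were equal in all 3 arrays. Of the 8 PI3K genes other than the members, 4 were equal to control in each treated array. Pik3r3 was higher by 0.16 under astragaloside IV and 0.25 under oxymatrine. The PIP3 phosphatases remove the product of the kinase. None of 5 was higher in either treated array as deposited, and after centring on the array medians 2 were higher under astragaloside IV. Inpp5e was at 7.99 in control, 7.31 under astragaloside IV and 7.93 under oxymatrine, low only in the astragaloside IV array. Inpp5d, the phosphatase SHIP of blood cells, differed by 0 and -0.06, and Inppl1 by -0.17 in each.

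**Figure D4:**
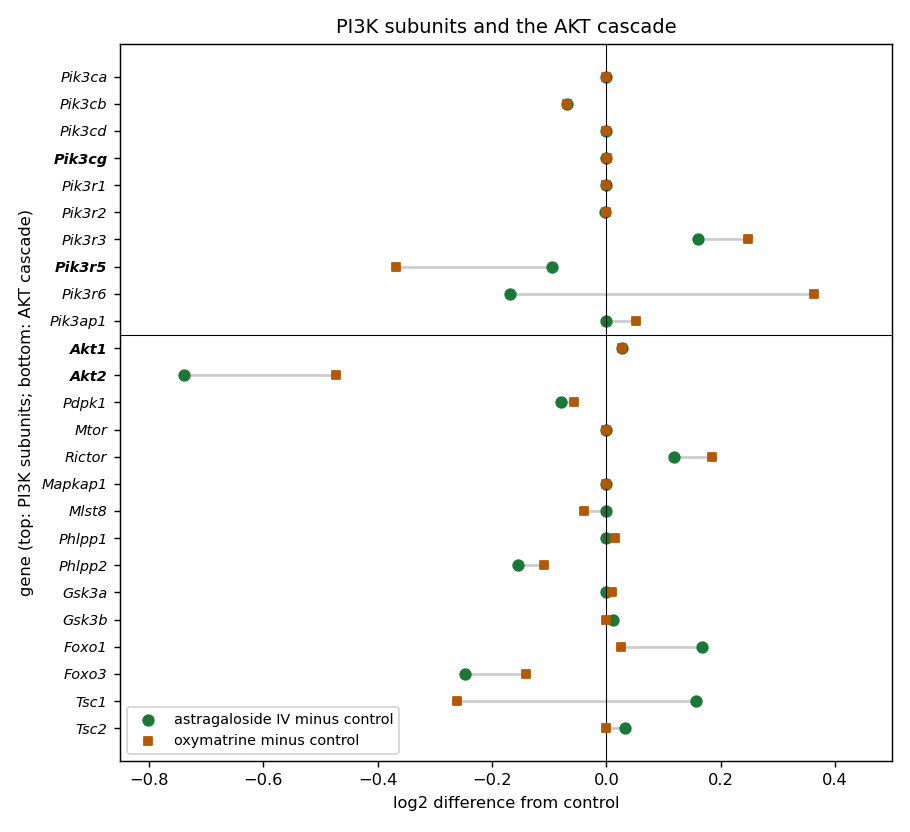
Log2 difference from control (horizontal axis) of PI3K subunit genes and genes of the AKT cascade above background (vertical axis, members in bold), under astragaloside IV as green circles and oxymatrine as orange squares joined by a grey line. Each symbol is a difference between 2 single arrays, so there are no error bars. Akt2 is farthest left at -0.74 and -0.47, and Pik3r5 and Pik3r6 lie on opposite sides of 0 under oxymatrine, at -0.37 and 0.36.

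Around AKT none of the other 13 genes above background lay as far from control as Akt2, and several lay farther than Akt1. Of these 13, 3 were lower and 5 higher under astragaloside IV, and 5 lower and 4 higher under oxymatrine. Pdpk1, which phosphorylates AKT in its activation loop, lay at -0.08 under astragaloside IV and -0.06 under oxymatrine, and Mtor was equal in all arrays. Gsk3b, a kinase that AKT inhibits, differed by 0.01 and 0, and Foxo3, a transcription factor that AKT holds outside the nucleus, by -0.25 and -0.14. Foxo1, the relative of Foxo3, lay on the other side of control, at 0.17 and 0.03, and the latter fell to -0.002 under another scaling. Tsc1, a restraint on the mTOR kinase downstream of AKT, was at 11.54 in control, 11.69 under astragaloside IV and 11.28 under oxymatrine. It was thus above control in one treated array and below it in the other, -0.42 apart between them, or -2.93 times the SD at its level.

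Downstream, Rac and Cdc42 build the actin network of the leading edge. The list of this step holds small GTPases, Rac and Cdc42 among them, as well as activators and effectors. Of its 15 genes above background, 11 were lower and 2 higher under astragaloside IV, beside 40.8% of all genes lower and 31.4% higher. Under oxymatrine 11 were lower and 4 higher, beside 46.0% lower and 29.7% higher. But after quantile normalisation 7 were lower and 7 higher under oxymatrine. Tiam1, an exchange factor for Rac, was at 6.45 in control, 5.83 under astragaloside IV and 5.48 under oxymatrine. It was below control by -0.62 and -0.98, which were -2.45 and -3.18 times the SD at its level. Prex1, an exchange factor for Rac that PIP3 and beta-gamma dimers activate together, was at 13.79, 13.63 and 13.50 in the same order, below control by -0.16 and -0.29. Cdc42, the brightest of the list, differed by 0 and -0.02. Dock2, the main Rac activator of lymphocyte and plasmacytoid dendritic cell migration, differed by -0.06 and -0.03.

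The last lists hold effectors of G proteins outside the PI3K branch. Of 4 phospholipase C beta genes, 3 were higher and 0 lower under astragaloside IV, led by Plcb3 at 0.27 and Plcb4 at 0.22, and 2 were higher under oxymatrine. Those 2 differences under astragaloside IV were 1.06 and 0.77 times the SD at their levels. Plcb4 was at 5.29 in control, below the intronic control median of 5.33 in that array. The intronic control probe sets were themselves higher under astragaloside IV, by a mean of 0.16. Whether Plcb4 differed beyond that shift was not tested. After centring on the array medians 3 of the 4 phospholipase C beta genes were lower under oxymatrine. Plcb2, the form of blood cells, differed by 0.13 and 0. Adenylyl cyclases, which inhibitory alpha subunits restrain, had 2 of 9 genes above background: Adcy6 differed by 0 and 0.02, and Adcy7 by 0.06 and 0. At the top of the pathway Ccr7, the receptor for CCL21, differed by 0.03 under astragaloside IV and -0.06 under oxymatrine. Cxcr4, the receptor for CXCL12, lay 0.03 and -0.10 from control, and Ccr9, the receptor for gut homing, -0.27 and -0.32. Cxcr3, an inflammatory chemokine receptor, was equal in all arrays.

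Among 86 pathway genes above background, those whose deviations over the 3 arrays lay nearest to Pik3r5 were Prex1, at a Euclidean distance of 0.10 log2 units, and the small GTPase gene Rap1a, at 0.11. Rap1a was at 13.10 in control, 13.10 under astragaloside IV and 12.89 under oxymatrine, so like Pik3r5 it was lowest under oxymatrine. Nearest to Akt2 were Gpsm3, at 0.25, and Inpp5e, at 0.32, both lowest under astragaloside IV. Nearest to Gng2 were Inpp5d, at 0.02, and Mlst8, at 0.03. With 3 arrays such a distance compares only 3 deviations per gene, and near genes need not share the order of the arrays.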

How the data were processed

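RNA of 3 samples was measured on whole-transcript expression arrays, 1 per group. The authors made the deposited log2 values, 1 per probe set and array, with RMA, per the submitters' processing notes. The RMA variant, the software and the genome build were not given in the sources used here. RMA subtracts background, equalises the arrays and summarises probes by median polish. The values ran from 1.78 to 19.7. All 28846 probe sets were read, and 19572 were named through the platform's annotation of 2019. For genes with several probe sets the brightest was used. Genes were called above background at the 95th percentile of the mean level of 1410 olfactory and vomeronasal receptor genes, which left 10671. This level lay below the median of the intronic control probe sets in every array.

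Each comparison is the difference of 2 log2 values, with no test, p-value or error. The SD beside a gene is that of the same difference over genes in 1 of 20 bins of equal size by level. The precision is limited by the number of arrays.

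Members and lists were chosen with earlier results of these data known. From each list were named the brightest gene and the 2 with the largest difference from control, then the 2 genes nearest in pattern to each of the 3 members with the widest range, and receptor genes of the pathway. Genes named outside this rule (Pik3ca, Pik3cd, Pik3r3, Pdpk1, Mtor, Foxo1, Foxo3, Dock2 and markers) were chosen after their values were seen. Listed genes without a named probe set are not analysed here. Alternatives were 3 other scalings, the mean over probe sets, other level filters and other fold thresholds. The code was run on simulated arrays without noise. All 100 genes raised 3-fold and all 100 lowered 3-fold were found 2-fold apart with astragaloside IV against control, as were 0 of 19305 unmoved genes. Without noise a 3-fold change must pass the 2-fold threshold, so this checked the arithmetic only. It does not measure detection in single arrays. Python 3.11.15, numpy 2.4.6, pandas 2.3.3, statsmodels 0.14.6 and matplotlib 3.10.9 were used.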

Additional observations from a re-analysis of the deposited data

How the results depend on the processing

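The differences of Akt2 and Pik3r5 from control kept their sign under all 4 alternatives (centring on array medians, quantile normalisation, lowess centring with a fraction of 0.3, and the mean over probe sets, which changes nothing for genes with 1 probe set). For Akt2 they ranged from -0.76 to -0.73 under astragaloside IV and from -0.50 to -0.44 under oxymatrine, and for Pik3r5 from -0.09 to -0.08 and from -0.39 to -0.33. All 96 values of single members under the alternatives stayed within 1 SD of genes of similar level from the deposited value. The 21 medians of the members and the pathway genes moved by less than 0.1 log2 units. These limits were wide for some alternatives. Centring on array medians moved every difference of a comparison alike, by 0.004, -0.027 or -0.031, and the mean over probe sets moved no member. For those alternatives the limits could not have been passed. The number of all genes apart from control moved with the threshold and the filter, by their own construction. With astragaloside IV it was 21, against 227 at 1.5-fold, 1 at 3-fold, 11 with the 99th percentile filter and 79 with no filter. With oxymatrine it was 30, against 353, 0, 17 and 90 in the same order, and between the treated arrays 17, against 275, 1, 9 and 82. The 30 genes 2-fold apart under oxymatrine split into 14 higher and 16 lower, and after quantile normalisation 10 were higher and 24 lower. No paired analysis was possible because each group had 1 array and the labels give no replicate numbers. No replicate could be left out for the same reason. Small differences such as those of Gng2 and Akt1 under oxymatrine changed sign with scaling.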
